A study of Mus musculus with 96 samples.

Results

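The 10 genes described here flank Pms1 on mouse chromosome 1: Ormdl1, Osgepl1, Asnsd1, Hibch, Mfsd6, Coq10b, Hspd1, Hspe1, Mob4 and Mars2. They were taken by name from the 48795 genes of the count table, and all 10 were found. They were chosen by their read-count differences between Pms1 null and WT mice, some of which had been seen in these data, so that comparison is given as a description and supports nothing here. All 10 passed the filter on low counts in both tissues.

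RNA came from the striatum and cerebral cortex of 48 mice aged 6 months on a C57BL/6 background, with both tissues taken from each animal. There were 6 genotypes of 8 animals, 4 females and 4 males. Q140 Pms1 null, Q140 Pms1 het and Q140 mice all carried 1 copy of the Q140 Htt knock-in (Het (Q140) KI), which puts an expanded CAG tract into mouse Htt and serves as a model of Huntington's disease. The first of these was also Pms1-/- and the second Pms1+/-, while Q140 mice carried no Pms1 mutation. Pms1 null (Pms1-/-), Pms1 het (Pms1+/-) and WT mice carried no knock-in. What the Pms1 allele lacks, and whether animals were littermates, is not stated in the labels.

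PMS1 belongs to the MutL family, which acts in DNA mismatch repair, and mismatch repair genes are known to modify the expansion of CAG repeats in neurons of the striatum. Genes beside a targeted locus are of interest in such mice because a neighbour can differ through its position as well as through the loss of the targeted gene. Most of these neighbours serve mitochondria. Hspd1 and Hspe1 encode the chaperonin HSP60 and its partner HSP10, which fold proteins in the mitochondrial matrix. Mars2 encodes the mitochondrial methionyl-tRNA synthetase, Osgepl1 an enzyme of the t6A modification of mitochondrial tRNA, and Hibch a hydrolase of valine breakdown. Coq10b encodes a coenzyme Q-binding protein. Outside mitochondria, Ormdl1 encodes an endoplasmic reticulum protein that restrains serine palmitoyltransferase, the entry step of sphingolipid synthesis. Mob4 encodes a subunit of the STRIPAK phosphatase and kinase complex, Mfsd6 a membrane protein of the major facilitator superfamily, and Asnsd1 a protein with an asparagine synthetase-like domain.

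Coordinates are those of GENCODE release M21 on GRCm38. Pms1 (ENSMUSG00000026098) lies on the minus strand of chromosome 1, from 53189187 to 53297018. Ormdl1 (ENSMUSG00000026097, plus strand, 53297095 to 53310309) runs away from it, with 77 bases between the annotated starts. Osgepl1 (plus strand, 53313624 to 53326343) and Asnsd1 (minus strand, 53344617 to 53352752) follow at 16.6 kb and 47.6 kb. On the other side lie Hibch (plus strand, 52844929 to 52920986) and Mfsd6 (minus strand, 52656286 to 52727462). A second cluster begins 1.76 Mb beyond the Pms1 start with Coq10b (plus strand, 55052770 to 55072702). It goes on with Hspd1 (minus strand, 55077835 to 55088243), Hspe1 (plus strand, 55088132 to 55091307), Mob4 (plus strand, 55131231 to 55154899) and Mars2 (ENSMUSG00000046994, plus strand, 55237177 to 55248470). The annotated starts of Hspd1 and Hspe1 lie beside each other on opposite strands, and the genes overlap there by 112 bases.

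RefSeq promoter windows on GRCm38.p6, from 250 bases before to 50 bases after the start, were found for 9 of the 10 genes. Those of 4 genes are shown, 5′ to 3′ on the plus strand. Ormdl1 and Hspe1 are shown because each faces a neighbour that starts beside it on the minus strand, and Mars2 and Coq10b because the results below turn on them. Capitals mark matches, on either strand, to the CCAAT box, to the heat-shock-element arrangements TTCNNGAA and GAANNTTC, and to the NRF1-like core GCATGCG. A further search was for the TATA box as TATAAA. The windows are Ormdl1 at chr1:53296845-53297144, Hspe1 at chr1:55087898-55088197, Mars2 at chr1:55236927-55237226 and Coq10b at chr1:55052520-55052819.
Ormdl1: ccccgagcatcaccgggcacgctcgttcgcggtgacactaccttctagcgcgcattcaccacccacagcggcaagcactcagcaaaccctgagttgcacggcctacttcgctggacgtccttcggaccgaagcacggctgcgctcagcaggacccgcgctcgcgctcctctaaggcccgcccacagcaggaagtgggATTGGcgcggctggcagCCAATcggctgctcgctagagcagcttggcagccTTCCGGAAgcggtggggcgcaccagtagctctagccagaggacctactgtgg
Hspe1: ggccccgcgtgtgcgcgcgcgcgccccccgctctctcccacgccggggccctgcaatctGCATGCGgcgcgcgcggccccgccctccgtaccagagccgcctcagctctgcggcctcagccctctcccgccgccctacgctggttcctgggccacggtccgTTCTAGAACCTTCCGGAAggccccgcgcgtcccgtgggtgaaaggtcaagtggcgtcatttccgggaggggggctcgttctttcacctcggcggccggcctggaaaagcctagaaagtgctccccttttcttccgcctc
Mars2: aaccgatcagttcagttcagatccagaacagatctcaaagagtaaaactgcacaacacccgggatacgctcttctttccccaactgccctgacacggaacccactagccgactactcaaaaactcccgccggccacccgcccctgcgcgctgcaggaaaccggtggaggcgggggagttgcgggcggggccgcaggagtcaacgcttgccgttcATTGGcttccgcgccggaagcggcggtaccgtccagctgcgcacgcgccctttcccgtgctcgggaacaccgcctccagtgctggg
Coq10b: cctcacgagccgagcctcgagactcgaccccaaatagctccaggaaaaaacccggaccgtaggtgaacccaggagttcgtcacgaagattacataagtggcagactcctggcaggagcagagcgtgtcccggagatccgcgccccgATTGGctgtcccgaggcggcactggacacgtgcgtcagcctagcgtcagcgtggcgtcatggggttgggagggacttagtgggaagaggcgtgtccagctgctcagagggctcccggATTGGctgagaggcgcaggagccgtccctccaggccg

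Of 2 Hspd1 windows, the first holds no match to TTCNNGAA, GAANNTTC or GCATGCG. The Hspe1 window, shared with the second on the other strand, holds 2 matches to TTCNNGAA and 1 to GAANNTTC. These overlap in the run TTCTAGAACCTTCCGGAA. Among 27025 promoter windows of this length, 8.4% hold TTCNNGAA, 7.95% GAANNTTC, 3.64% GCATGCG, 37.9% CCAAT and 14.2% TATAAA. The Ormdl1 window overlaps that of Pms1 and has 2 CCAAT matches and 1 TTCNNGAA match. Coq10b has 2 CCAAT matches and Mars2 has 1. None of the members' windows holds TATAAA, and their CpG counts of 15 to 39 compare with a median of 7 over all windows. A match is a string of letters, not a measured binding site.

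The libraries held 27993751 to 56364535 counts. Levels are given as TMM-scaled CPM unless FPKM is named. Pms1 itself was at 3.59 to 4.64 CPM in Q140 Pms1 null striatum, against 4.38 to 6.28 CPM in Q140 striatum. It was at 3.08 to 4.47 CPM in Pms1 null striatum, against 4.89 to 5.85 CPM in WT striatum, which do not overlap. In cortex its ranges overlapped in both pairs. Since the missing part of Pms1 is not stated, RNA from the rest of the gene may still be counted. Summed markers of striatal medium spiny neurons (10 of 10 listed genes measured) were at 7077 to 8064 CPM in Q140 striatum, against 10610 to 12040 CPM in WT striatum and 294.6 to 342.3 CPM in WT cortex. Of 6 listed markers of cortical glutamatergic neurons, 5 were tested in striatum, where they summed to at most 39.95 CPM, against 1553 to 1862 CPM in WT cortex. In tissue RNA, fewer cells of a type and less RNA per cell cannot be told apart. Nothing in the labels says how the 8 animals of a group were bred, and every p-value measures the spread among them.

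Per length, on the FPKM scale of the deposited table, the chaperonin pair led the neighbours. In WT striatum Hspd1 averaged 37.8 FPKM and Hspe1 20.7 FPKM, followed by Mob4 at 11.4, Mfsd6 at 8.70 and Coq10b at 8.18 FPKM. The other 5 lay far lower: Osgepl1 at 2.91, Mars2 at 2.35, Hibch at 2.19, Ormdl1 at 1.17 and Asnsd1 at 0.973 FPKM (n = 8 each). The SDs were 0.728 FPKM for Coq10b and 0.142 FPKM for Mfsd6, and 0.184 FPKM for Mars2 and 0.0924 FPKM for Hibch. Neighbours in this order that did not stand apart beyond these SDs were Coq10b and Mfsd6, and Mars2 and Hibch.

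Among the closest neighbours of Pms1, Ormdl1 and Asnsd1 had the lowest levels of the set. Within a genotype the median coefficient of variation in striatum was 8.26% for Asnsd1 and 8.54% for Ormdl1, against 3.37% for Mfsd6, 4.2% for Mob4 and 4.24% for Hibch. Coq10b varied most, at 9.95%. Ormdl1 lies almost wholly inside Gm28778 on the same strand, and Asnsd1 inside Gm28551. Reads that could belong to either of an overlapping pair may be lost or split, so both genes are uncertain; Gm28778 and Gm28551 had median counts of 0 and 3 over all libraries. Hspd1 shares sequence with pseudogenes such as Hspd1-ps3, which averaged 50.8 CPM in WT striatum, and its values are uncertain for the same reason.

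Of the 10 genes, 6 differed between WT striatum and WT cortex, where 76% of all 19723 genes tested were called. A gene is called here at an adjusted p below 0.05 by edgeR's quasi-likelihood test. Mfsd6 was lower in striatum, at 73.2 ± 1.45 CPM in WT striatum and 119.5 ± 3.71 CPM in WT cortex (SD, n = 8 each), a log2 fold change of -0.73 (SE 0.03). Its ranges did not overlap. Mars2 (-0.39, SE 0.04) and Mob4 (-0.19, SE 0.04) were also lower on the log2 scale. Hspe1 was higher, at 31.2 ± 2.16 CPM in WT striatum and 21.1 ± 1.21 CPM in WT cortex (SD, n = 8 each), a log2 fold change of 0.54 (SE 0.04). Hspd1 was higher by only 0.16 (SE 0.03) and Asnsd1 by 0.20 (SE 0.07). The 2 chaperonin subunits thus differed between tissues by unequal amounts at the RNA level. Ormdl1, Osgepl1, Hibch and Coq10b were not called. Both tissues come from the same animals, and with the animal as a block Coq10b (0.12, adjusted p = 0.00186 by edgeR) and Osgepl1 (0.09, adjusted p = 0.0153) were called higher in striatum as well.

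**Figure D1:**
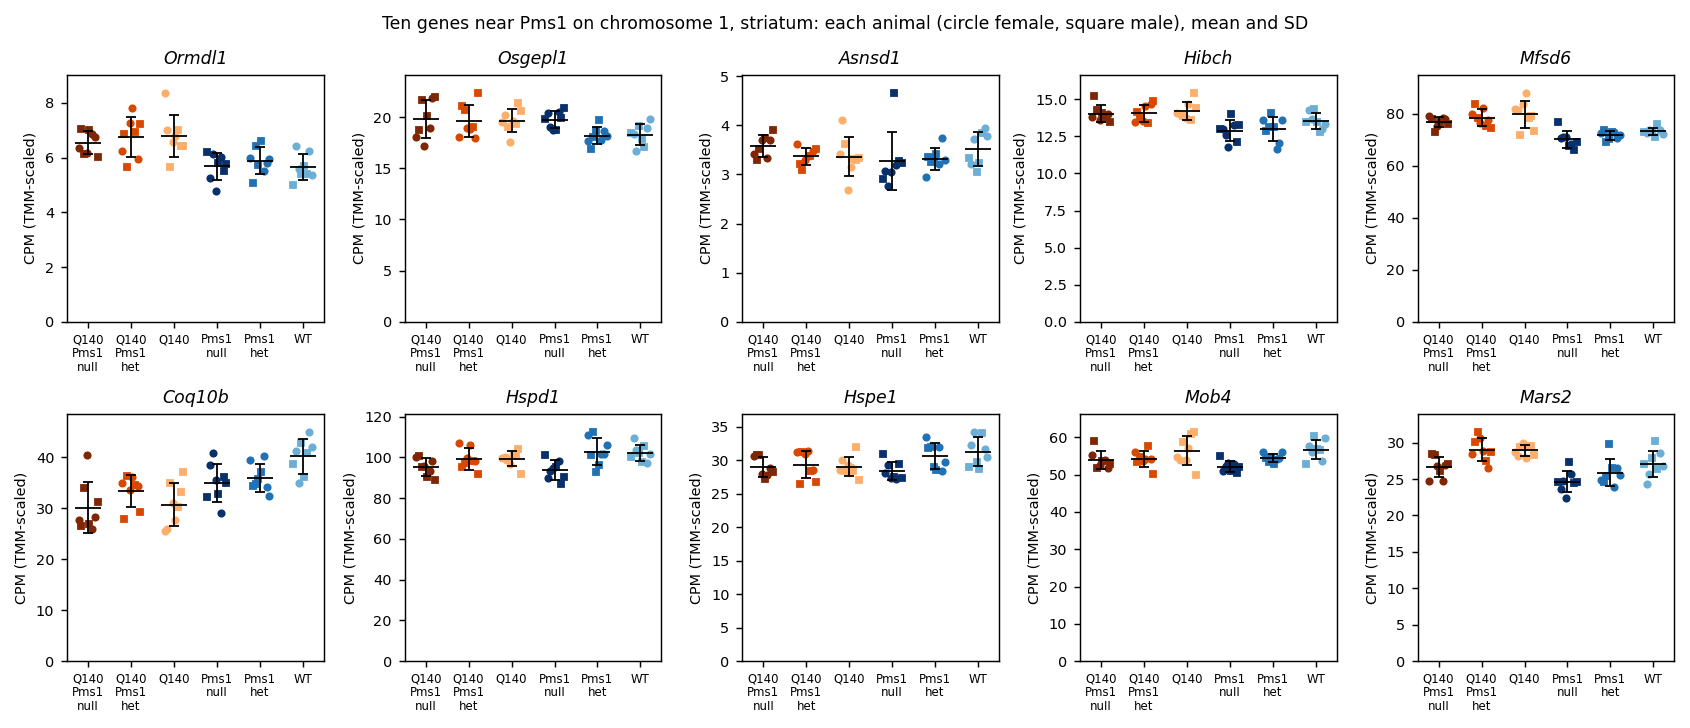
Levels of the 10 genes in striatum in TMM-scaled CPM (vertical axes, each from 0), by genotype with 1 point per animal (circles female, squares male) and the mean with SD of 8. Mars2 lies lower in Q140 Pms1 null than in Q140 animals, and Coq10b lower in Q140 than in WT animals.

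The first question was whether the neighbours differ with loss of Pms1 on the knock-in background. Whether these animals entered the choice of genes is not stated. In striatum 1 of 10 was called between Q140 Pms1 null and Q140, against 7.1% of all 18890 genes tested, a share near the background. The called gene was Mars2. It was at 24.8 CPM in the lowest, 26.8 CPM in the median and 28.4 CPM in the highest Q140 Pms1 null animal, against 27.9, 29.1 and 29.95 CPM in Q140 animals. All 8 Q140 Pms1 null animals were below the Q140 median, although the ranges overlapped. The means were 26.6 ± 1.40 CPM in Q140 Pms1 null and 28.9 ± 0.77 CPM in Q140 striatum (SD, n = 8 each), a log2 fold change of -0.12 (SE 0.04, adjusted p = 0.0367 by edgeR). The call was lost without the filter on low counts (adjusted p = 0.0615) and with a term for animals whose first code number is 16 or more (-0.12, adjusted p = 0.11). It was also lost in females alone (-0.15, adjusted p = 0.132) and in males alone (-0.09, adjusted p = 0.544), while over all 12 alternatives the adjusted p lay between 0.00763 and 0.544.

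All Q140 Pms1 null and Pms1 null animals carry such a late code, against 3 of 8 Q140 and 2 of 8 WT animals. The sources used here do not say what the first code number means. In striatum Mars2 was at 28.3 to 29.5 CPM in the 3 late-coded Q140 animals and at 27.9 to 29.95 CPM in the other 5. Both sets of Q140 animals therefore lay in the upper part of the Q140 Pms1 null range or above it.

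The other 9 genes had log2 fold changes between -0.07 and 0.09 in that striatal comparison, and their median with Mars2 was -0.0365, against -0.00459 over all genes. Ormdl1, the gene that starts beside Pms1, averaged 6.54 ± 0.42 CPM in Q140 Pms1 null and 6.78 ± 0.77 CPM in Q140 striatum (SD, n = 8 each). Its log2 fold change was -0.05 (SE 0.07, adjusted p = 0.745 by edgeR). Osgepl1 was at 0.01 (SE 0.04) and Asnsd1 at 0.09 (SE 0.08). Mob4 had the next smallest unadjusted p at -0.07 (SE 0.03, adjusted p = 0.246 by edgeR). With library totals in place of TMM factors, or with limma on filtered FPKM, Mob4, Hspd1 and Mfsd6 were called lower as well, 4 genes in all. Limma without a filter called 3, without Hspd1. These settings called 1700 to 2209 of all genes, against 1342 by edgeR with TMM factors.

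In cortex none of the 10 was called between Q140 Pms1 null and Q140 by edgeR or by DESeq2, and 2 had an unadjusted p below 0.05. There 0.0107% of all genes were called, and 2713 of all 18711 had an unadjusted p below 0.05. The 2 members were Mob4 at -0.09 (SE 0.04, adjusted p = 0.215) and Hibch at 0.10 (SE 0.05, adjusted p = 0.316), both by edgeR. Mars2 pointed the other way in cortex, at 34.6 ± 2.49 CPM in Q140 Pms1 null and 33.1 ± 2.45 CPM in Q140 cortex (SD, n = 8 each). Its log2 fold change there was 0.07 (SE 0.04, adjusted p = 0.449 by edgeR).

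The difference of the Mars2 change between striatum and cortex was itself called, at -0.18 on the log2 scale (SE 0.05, adjusted p = 0.0432 by edgeR). It was 1 of 10 genes, with 4.06% of all genes called. With the animal as a block it was again -0.18 (adjusted p = 0.0204), and with RLE size factors or without the filter it missed the threshold (adjusted p = 0.0522 and 0.0787). In cortex, unlike striatum, the Mars2 ranges of late-coded and other animals did not overlap within Q140 or within WT. The 3 late-coded Q140 animals, all male, were at 34.9 to 35.6 CPM. The other 5, mostly female, were at 29.2 to 34.7 CPM. In WT cortex 2 late-coded animals, both female, were at 36.4 to 39.2 CPM. The other 6, mostly male, were at 32.7 to 35.8 CPM. Within each genotype the code went largely with sex, and the part of either in these ranges was not tested. With a term for late codes in each tissue, an alternative added after the data were seen, the tissue difference was -0.11 (adjusted p = 0.526) and was not called.

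**Figure D2:**
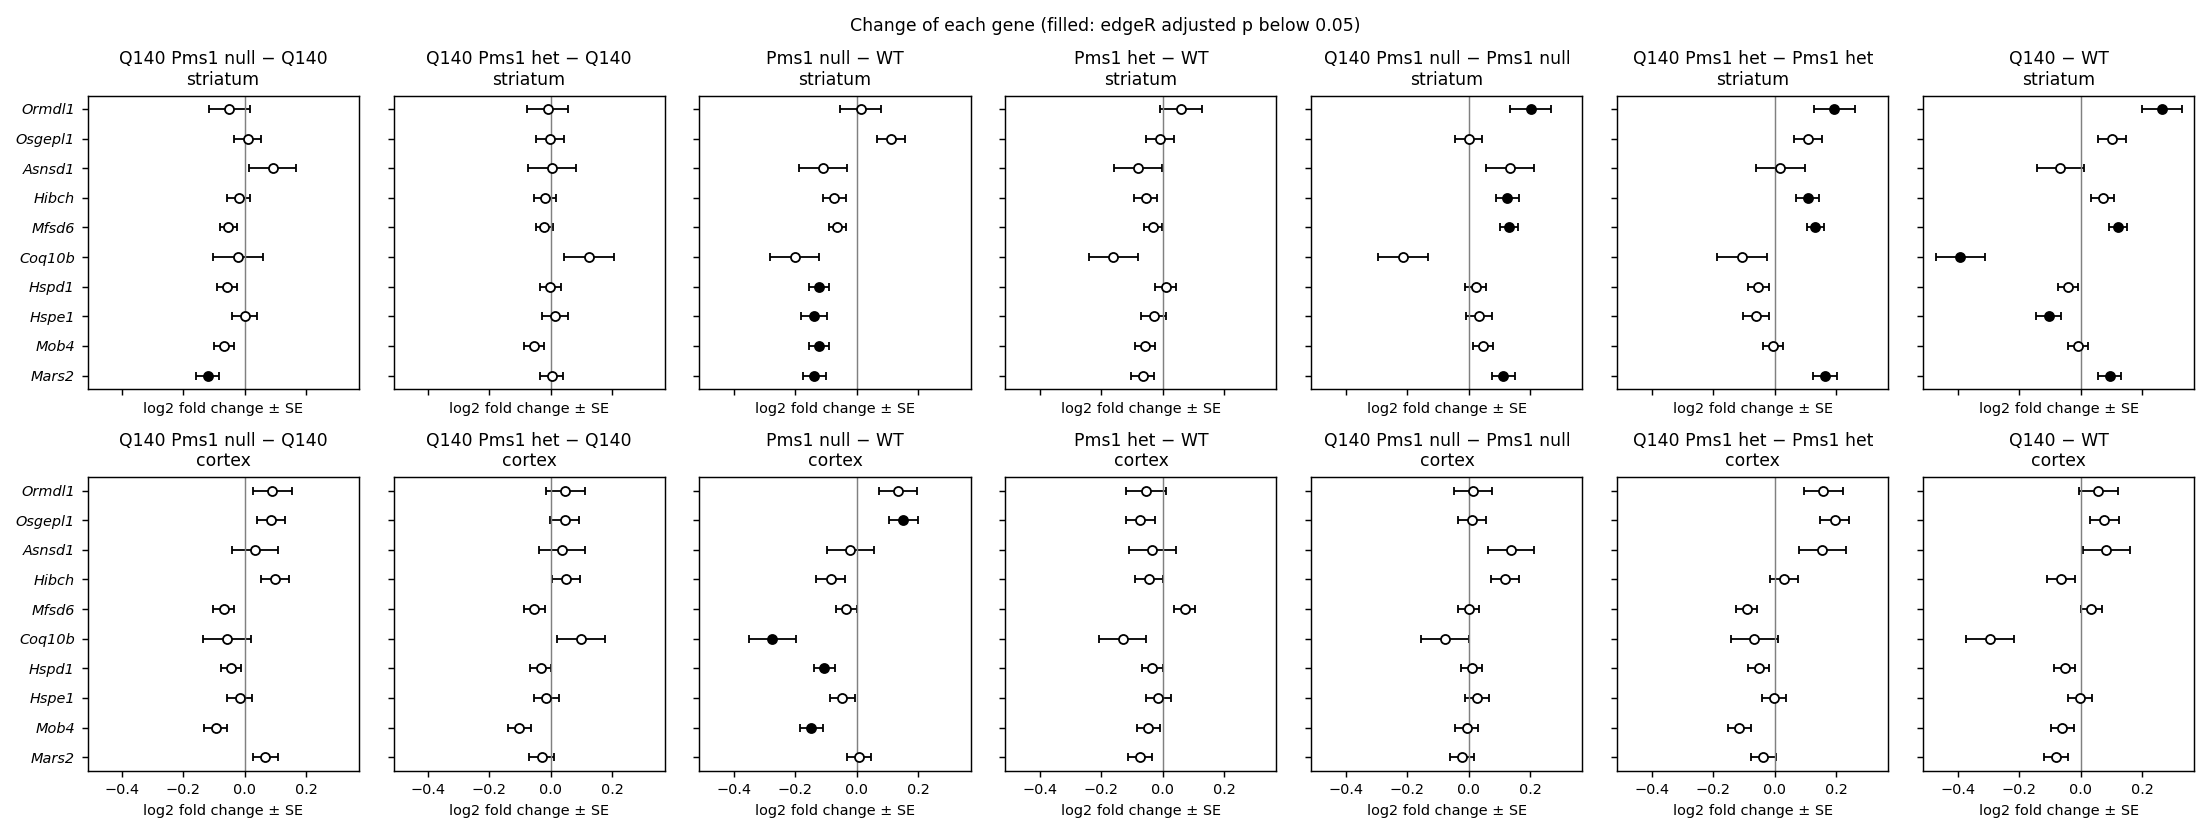
Log2 fold changes of the 10 genes (horizontal axes, bars of 1 SE) in striatum (upper row) and cortex (lower row) for 7 comparisons, with the genes near Pms1 at the top and the second cluster below. Filled points were called; in striatum Ormdl1, Mfsd6 and Mars2 lie right of 0 and are filled in each of the 3 knock-in comparisons.

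Whether the Pms1 change differed with the knock-in was tested as an interaction. By edgeR 0 of 10 genes were called in striatum, where 5.05% of all genes were called, and 0 of 10 in cortex, where 0% were called. In each tissue 1 of the 10 had an unadjusted p below 0.05: Hspe1 in striatum (0.14, SE 0.06, adjusted p = 0.171) and Hibch in cortex (0.18, SE 0.07, adjusted p = 0.839). Of all genes, 3614 of 18890 in striatum and 1020 of 18711 in cortex had such a p. DESeq2 also called 0 of 10 in both. A difference between the sexes in the Q140 Pms1 null change was called for 0 of 10 genes in either tissue by edgeR and 0 of 10 by DESeq2, and for 0% of all genes. In each tissue 2 of the 10 had an unadjusted p below 0.05, as had 1120 of all 18890 genes in striatum and 1028 of all 18711 in cortex. The smallest among the 10 was that of Mars2 in cortex, with a log2 difference of 0.23 (SE 0.07, adjusted p = 0.889 by edgeR).

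With 1 copy of Pms1 no neighbour was called. Between Q140 Pms1 het and Q140, 0 of 10 genes were called by edgeR and by DESeq2 in either tissue, with 0% of all genes called in both. None had an unadjusted p below 0.05 in striatum and 1 had in cortex, Mob4 at -0.10. Of all genes, 1026 of 18890 in striatum and 1065 of 18711 in cortex had such a p. Mob4 averaged 56.6 ± 3.15 CPM in Q140 Pms1 het and 60.8 ± 5.09 CPM in Q140 cortex (SD, n = 8 each). Mars2 averaged 29.0 ± 1.61 CPM in Q140 Pms1 het striatum, close to the 28.9 CPM of Q140 striatum. A test of Q140 Pms1 het against the midpoint of Q140 and Q140 Pms1 null called 0 of 10 genes by edgeR and by DESeq2 in either tissue (0% of all genes in both), with none at an unadjusted p below 0.05. Between Pms1 het and WT, 0 of 10 were called by edgeR and by DESeq2 in either tissue (0% of all genes in both), with none in striatum and 1 in cortex at an unadjusted p below 0.05.

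Pms1 null against WT, taken as the comparison behind the choice of genes, is described with no weight on its calls. In striatum 4 of 10 genes were called lower, with 7.91% of all genes called: Hspd1 (-0.12), Hspe1 (-0.14), Mob4 (-0.12) and Mars2 (-0.14). All of these lie in the cluster more than 1.7 Mb from Pms1. Hspd1 averaged 93.8 ± 4.77 CPM in Pms1 null and 102.2 ± 4.08 CPM in WT striatum (SD, n = 8 each). In cortex Coq10b (-0.28), Mob4 (-0.15) and Hspd1 (-0.11) were called lower and Osgepl1 (0.15) higher, with 9.58% of all genes called. Coq10b was at 24.4, 30.6 and 32.6 CPM in the lowest, median and highest Pms1 null cortex, against 34.1, 35.3 and 41.4 CPM in WT cortex. These were ranges that did not overlap.

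With a term for late codes the calls of this comparison numbered 0 in striatum and 1 in cortex, while the log2 fold changes of the lost calls kept their sign. In striatum they were -0.10 for Hspd1, -0.12 for Hspe1, -0.12 for Mob4 and -0.14 for Mars2, and in cortex -0.29 for Coq10b, -0.11 for Hspd1 and 0.12 for Osgepl1. Hspd1-ps3, the pseudogene, was lower by a like amount, at -0.14 in striatum and -0.15 in cortex. Ormdl1, Asnsd1, Hibch and Mfsd6 were called in neither tissue.

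**Figure D3:**
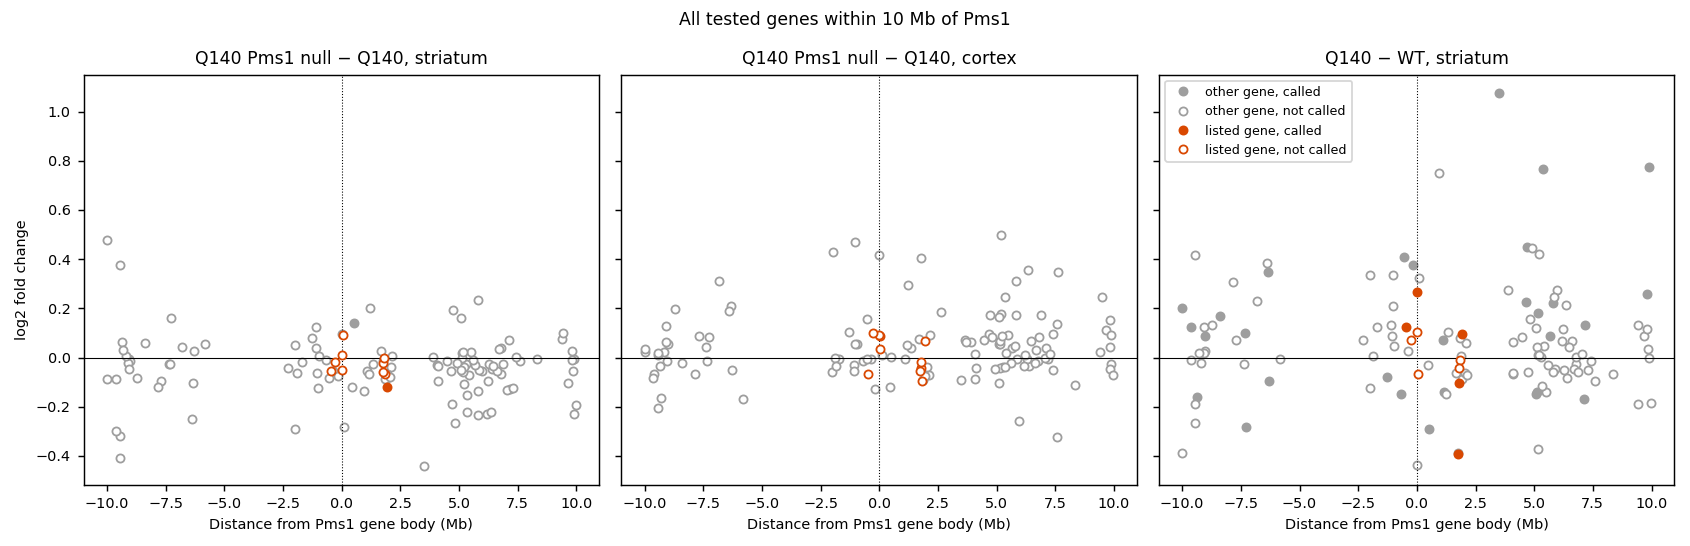
Log2 fold changes (vertical axis) of all genes tested within 10 Mb of Pms1, by distance from Pms1 in Mb (horizontal axis). The 10 described genes are marked and called genes filled. The panels are Q140 Pms1 null against Q140 in striatum, the same comparison in cortex, and Q140 against WT in striatum. In Q140 Pms1 null against Q140 only Mars2 and Hecw2 are filled in striatum and no gene in cortex. In Q140 against WT striatum 34 of 127 genes are filled (26.8%, against 31.3% of all genes).

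Calls were also counted over all genes near Pms1. Between Q140 Pms1 null and Q140 striatum, 2 of 53 genes tested within 5 Mb were called (3.77%, against 7.1% of all genes), and no more were added out to 10 Mb among 127 genes. In cortex none of 56 genes within 5 Mb was called. Pms1 null against WT, taken as behind the choice of genes, had 6 of 53 called within 5 Mb in striatum (11.3%, against 7.91% of all genes). In cortex it had 7 of 56 called (12.5%, against 9.58%). In each tissue 4 of these calls were among the 10 described genes, so these shares are no evidence of an excess near Pms1. Within 10 Mb 11 of 127 were called in striatum (8.66%) and 10 of 133 in cortex (7.52%). Beside Mars2, the gene called between Q140 Pms1 null and Q140 striatum was Hecw2, a HECT-type E3 ubiquitin ligase 0.51 Mb from Pms1. It was higher, at 88.9 ± 3.88 CPM in Q140 Pms1 null and 80.7 ± 3.60 CPM in Q140 striatum (SD, n = 8 each), a log2 fold change of 0.14 (SE 0.03, adjusted p = 0.0017 by edgeR). Hecw2 was at 98.2 CPM in Pms1 null and 98.7 CPM in WT striatum, so the difference was seen on the knock-in background, and the interaction was called (0.15, adjusted p = 0.0333 by edgeR).

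The knock-in was compared next. Between Q140 and WT striatum 5 of 10 genes were called, 3 higher and 2 lower, with 31.3% of all genes called. With library totals in place of TMM factors, and with limma on FPKM, 5 were higher and 1 lower. Osgepl1 (0.18 with library totals) and Hibch (0.15) came in and Hspe1 (-0.03, adjusted p = 0.581 by edgeR) was lost. Those settings called 7288 to 7940 of all genes, against 5909 by edgeR with TMM factors. The WT animals are also those of the comparison behind the choice of genes. Ormdl1 was at 5.67, 6.67 and 8.37 CPM in the lowest, median and highest Q140 striatum, against 5.01, 5.49 and 6.43 CPM in WT striatum. All 8 Q140 animals were above the WT median, and the ranges overlapped. This is a log2 fold change of 0.26 (SE 0.07, adjusted p = 0.00131 by edgeR). Mfsd6 averaged 79.7 ± 5.29 CPM in Q140 and 73.2 ± 1.45 CPM in WT striatum (SD, n = 8 each), higher by 0.12 (SE 0.03, adjusted p = 0.000539 by edgeR). Mars2 was higher (0.10, SE 0.04, adjusted p = 0.0444 by edgeR) and Hspe1 lower (-0.10, SE 0.04, adjusted p = 0.0485), both close to the threshold. Summed markers of other cell types lay lower in Q140 than in WT striatum with no overlap. Astrocyte markers (5 of 5) were at 2640 to 2919 CPM in Q140 and 2934 to 3216 CPM in WT striatum, and microglial markers (5 of 5) at 230.7 to 265.1 CPM in Q140 and 267.2 to 286.3 CPM in WT striatum. Endothelial markers (4 of 4) were at 113.8 to 130.6 CPM in Q140 and 133 to 150.5 CPM in WT striatum. Oligodendrocyte markers overlapped. The part of these markers and of the medium spiny neuron markers given above was not tested.

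The same knock-in contrast can be made in Pms1 null and in Pms1 het animals, 2 comparisons added after the data were seen. The 3 contrasts share no animals, but the Pms1 null and WT animals belong to the comparison behind the choice of genes, and the Pms1 het pair holds neither. Between Q140 Pms1 null and Pms1 null striatum 4 of 10 genes were called, all higher, with 11.1% of all genes called. Between Q140 Pms1 het and Pms1 het striatum 4 of 10 were called, again all higher, with 24.9% of all genes called. Ormdl1, Mfsd6 and Mars2 were called higher in all 3 contrasts, and the share of all genes called so was not counted. With the first code number as a correlated block in limma-voom, only Mfsd6 was called in all 3. Ormdl1 (adjusted p = 0.0668) and Mars2 (adjusted p = 0.071) were then lost on the Pms1 null background and Mars2 (adjusted p = 0.0564) in Q140 against WT. Hibch was called in both added ones and not in Q140 against WT (0.07, SE 0.04, adjusted p = 0.138 by edgeR), where library totals called it too. The interaction given above sets the knock-in change on the Pms1 null background against that in Q140 against WT, and it did not call Hibch. For the Pms1 het background such a difference was not tested. Medium spiny neuron markers summed to 8226 to 9688 CPM in Q140 Pms1 null and 10170 to 12120 CPM in Pms1 null striatum, and to 7304 to 8741 CPM in Q140 Pms1 het and 10310 to 11820 CPM in Pms1 het striatum.

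Ormdl1 was higher by 0.20 (SE 0.07, adjusted p = 0.0405 by edgeR) on the Pms1 null and by 0.19 (SE 0.07, adjusted p = 0.0273) on the Pms1 het background. It averaged 6.75 ± 0.72 CPM in Q140 Pms1 het and 5.88 ± 0.49 CPM in Pms1 het striatum (SD, n = 8 each). Mfsd6 was higher by 0.13 on both backgrounds (SE 0.03 each, adjusted p = 0.00108 and 0.00033). Its range was 74.6 to 83.6 CPM in Q140 Pms1 het and 69.0 to 73.9 CPM in Pms1 het striatum, with no overlap. Mars2 was higher by 0.11 (adjusted p = 0.044) on the Pms1 null and by 0.16 (adjusted p = 0.000802) on the Pms1 het background, with an SE of 0.04 for each.

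Mars2 averaged 29.0 ± 1.61 CPM in Q140 Pms1 het and 25.9 ± 1.83 CPM in Pms1 het striatum (SD, n = 8 each). Hibch was higher by 0.13 (adjusted p = 0.0218) on the Pms1 null and by 0.11 (adjusted p = 0.0276) on the Pms1 het background, with an SE of 0.04 for each. Hspe1 did not keep its direction: its log2 fold change was 0.03 on the Pms1 null and -0.06 on the Pms1 het background, called in neither. Over 12 alternatives for each contrast, Mfsd6 was called in 11 of each set and missed the threshold in males alone (0.12 on the Pms1 null background, 0.13 on the Pms1 het background and 0.04 in Q140 against WT). Ormdl1 was called in 7 on the Pms1 null background, 9 on the Pms1 het background and 11 in Q140 against WT, and Mars2 in 7, 11 and 5 in the same order, all with the sign kept.

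**Figure D4:**
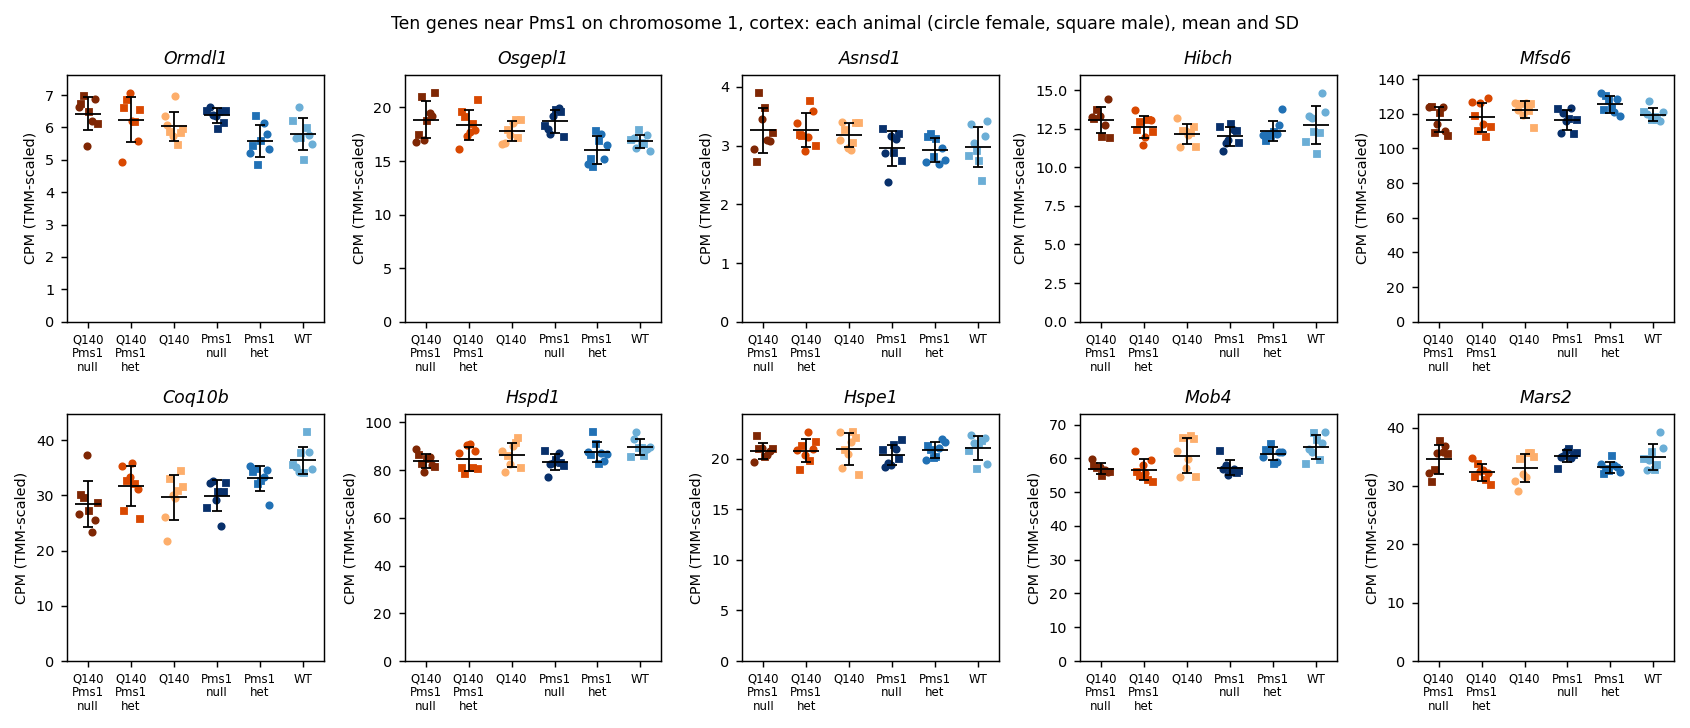
Levels of the 10 genes in cortex in TMM-scaled CPM, drawn as for striatum with 1 point per animal and the mean with SD of 8. Coq10b lies lower in Pms1 null than in WT cortex with no overlap, in the comparison taken as behind the choice of genes.

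In cortex the knock-in gave 0 calls among these genes by edgeR in each of the 3 contrasts, and DESeq2 gave 1, Osgepl1 in Q140 Pms1 het against Pms1 het. Of all cortical genes, 0.0428% were called in Q140 against WT, 0.0428% in Q140 Pms1 null against Pms1 null and 0.112% in Q140 Pms1 het against Pms1 het. The members with an unadjusted p below 0.05 numbered 1, 1 and 5 in that order, and of all 18711 genes 1369, 1399 and 2850 did so. By edgeR Osgepl1 was at 0.20 in Q140 Pms1 het against Pms1 het (adjusted p = 0.0599).

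Coq10b had the largest change of the 10 between Q140 and WT striatum, though not between Q140 Pms1 het and Pms1 het striatum. It was at 25.5, 30.6 and 37.2 CPM in the lowest, median and highest Q140 striatum, against 34.9, 41.0 and 45.0 CPM in WT striatum. All 8 Q140 animals were below the WT median, and the ranges overlapped. This is a log2 fold change of -0.39 (SE 0.08, adjusted p = 0.000142 by edgeR). It was -0.21 (SE 0.08, adjusted p = 0.0857) on the Pms1 null and -0.11 (SE 0.08, adjusted p = 0.379) on the Pms1 het background, called in neither, although DESeq2 called the first. In cortex Q140 against WT it was -0.29 (adjusted p = 0.247), not called. Without the knock-in, Pms1 null striatum averaged 35.0 ± 3.67 CPM and Pms1 het striatum 36.0 ± 2.74 CPM, against 40.2 ± 3.42 CPM in WT striatum, the highest mean of the 6 genotypes (SD, n = 8 each).

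The genes whose levels followed those of Coq10b most closely were sought over the 48 libraries of each tissue after genotype and sex were taken out, among 14635 genes. Ranked by the smaller r of the 2 tissues, the first was Arid3b, which encodes a DNA-binding protein, followed by Egr1, an immediate early gene of neuronal activity, and Per1, a clock gene. In striatum alone Per1 and Egr1 stood above Arid3b. Pearson's r with Coq10b was 0.886 in striatum and 0.778 in cortex for Per1, with Spearman's rho of 0.883 and 0.808. For Egr1 r was 0.853 and 0.785, and for Arid3b 0.786 and 0.806. Without the 2 libraries farthest from the median of Coq10b, r for Per1 was 0.863 in striatum and 0.777 in cortex. The libraries share their depth scaling and the 2 tissues share animals, and these values are a description.

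All 3 companions were also lower in Q140 than in WT striatum. Per1 averaged 166 ± 37.8 CPM in Q140 and 275 ± 21.7 CPM in WT striatum (SD, n = 8 each), a log2 fold change of -0.73 (SE 0.12, adjusted p = 8.25e-06 by edgeR). Egr1 averaged 310 ± 103 CPM in Q140 and 572 ± 90.1 CPM in WT striatum (SD, n = 8 each), a log2 fold change of -0.88 (SE 0.18, adjusted p = 0.00011 by edgeR). Arid3b was lower as well (-0.64, SE 0.08). In cortex Q140 against WT none of the 3 was called, with values of -0.35, -0.45 and -0.33. Hours of dissection are not given in the labels, and the part of the time of day in these levels was not tested.

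**Figure D5:**
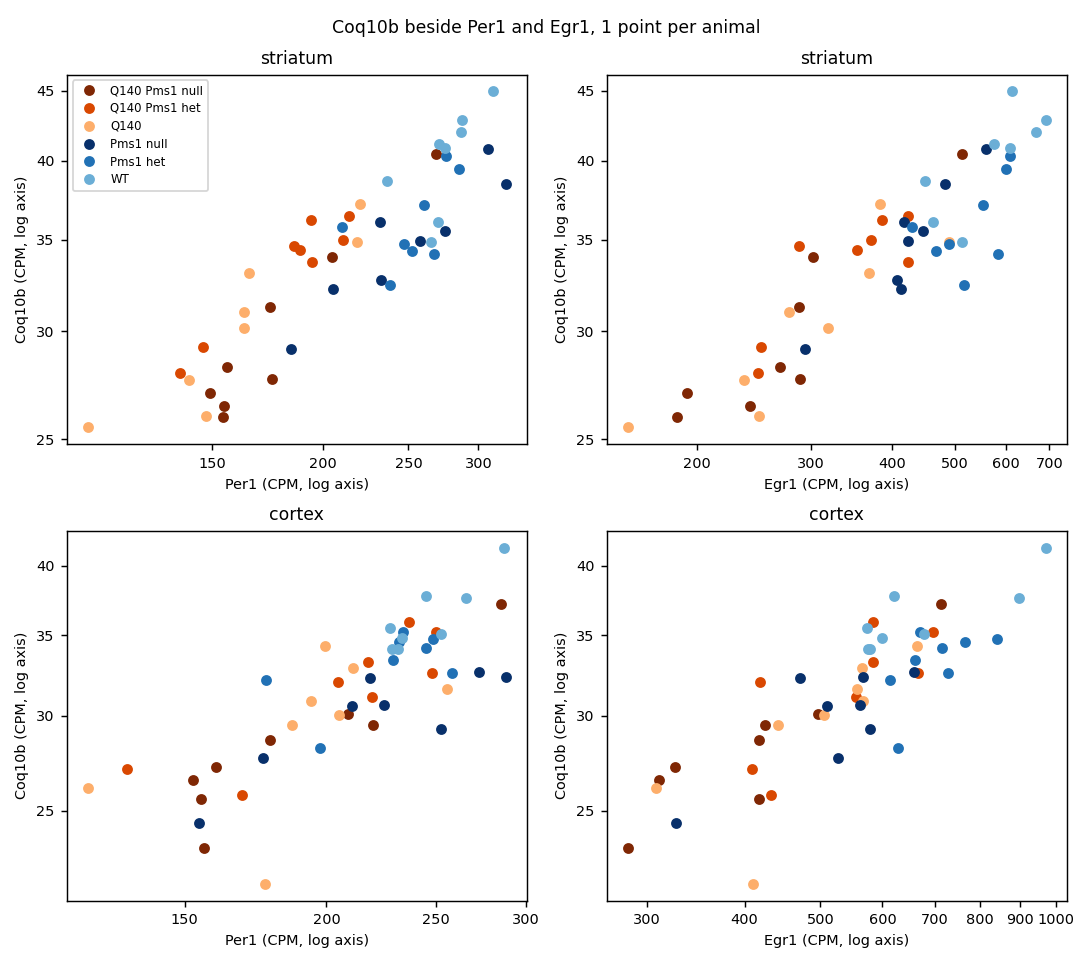
Coq10b (vertical axes) against Per1 and Egr1 (horizontal axes) in TMM-scaled CPM on log axes, 1 point per animal, for striatum and cortex, coloured by genotype. Within a genotype, animals with more Coq10b RNA had more Per1 and Egr1 RNA in both tissues, with r of 0.778 to 0.886 after genotype and sex were taken out.

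Among themselves the neighbours did not move as 1 block. Over 45 pairs of members the median r of the same residuals was -0.00385 in striatum and 0.0384 in cortex, with 2 pairs above 0.5 in each. In striatum these were Hspd1 with Hspe1 (0.604) and Hspd1 with Mob4 (0.544). In cortex they were Mfsd6 with Hspd1 (0.625) and Hspd1 with Mob4 (0.597), while Hspd1 with Hspe1 stood at 0.376. Osgepl1 had as its closest companion Tprkb, which encodes a partner of the cytosolic t6A machinery (r 0.602 in striatum and 0.526 in cortex). Mfsd6 followed Ankrd34b (0.722 and 0.716), and Ormdl1 was most like Spats2l, another chromosome 1 gene, though less closely (0.451 and 0.439). For Mars2, Hspd1 and Mob4 the leading genes were predicted genes without names.

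The pathways of the neighbours were followed with 8 lists of their partner genes, which leave out the neighbours themselves. Together 35 of their 107 tested genes were called in Q140 against WT striatum, near the 31.3% of all genes. Between Q140 Pms1 null and Q140 striatum 7 of the 107 were called higher and 2 lower, with 7.1% of all genes called. Counts below are by edgeR with TMM factors, with those under library totals beside them where the balance of higher and lower calls differed. Over all 18890 genes tested in striatum, library totals called 7940 in Q140 against WT, where TMM factors called 5909. Between Q140 Pms1 null and Q140 striatum library totals called 2148, where TMM factors called 1342. For Mob4 the list was the STRIPAK complex, with 10 of 18 genes called in Q140 against WT striatum, 2 higher and 8 lower (5 and 5 with library totals), and a median log2 fold change of -0.0886 (0.0122 over all genes). Strn, a scaffold of the complex, was lower (-0.43, SE 0.04), as was Slmap (-0.39, SE 0.03). Between Q140 Pms1 null and Q140 striatum, 4 of the 18 were called, 3 higher and 1 lower. The higher ones were Strn and Slmap, both by 0.23, and Strn4 (0.11). Both comparisons use the Q140 animals, so their values are only set side by side. Mob4 itself was called in neither.

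Sphingolipid synthesis and its regulators, the pathway of Ormdl1, had 8 of 13 tested genes called in Q140 against WT striatum, 5 higher and 3 lower (6 and 1 with library totals). Cers1, the ceramide synthase of neurons, was lower (-0.21, SE 0.03) and Cers2, that of oligodendrocytes, higher (0.17, SE 0.05). Ormdl3, a relative of Ormdl1, was lower (-0.09, SE 0.03). Between Q140 Pms1 null and Q140, 2 were higher (Cers1 at 0.18 and Kdsr at 0.09) and 1 lower (Cers2 at -0.17), against 1 higher and 2 lower with library totals. Around Coq10b, 3 of 12 genes of coenzyme Q synthesis and handling were called in Q140 against WT, all higher (8 higher with library totals), led by Coq3 (0.26, SE 0.05). Coq8a was the 1 call between Q140 Pms1 null and Q140, higher by 0.12 (SE 0.03), and was not called with library totals.

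The remaining lists were more open to the scaling in Q140 against WT striatum. Mitochondrial folding and proteolysis had 2 of 22 genes higher (Htra2 at 0.23, Phb at 0.10) and 3 lower (Ddit3 at -0.17, Timm44 at -0.10, Hspa9 at -0.06, with the opposite sign under library totals and FPKM), against 9 higher and 0 lower with library totals. Valine and other branched-chain breakdown, the pathway of Hibch, had 3 of 13 higher (12 with library totals), led by Echs1 (0.21, SE 0.03). Mitochondrial aminoacyl-tRNA synthetases other than Mars2 had 2 of 16 higher (Cars2 at 0.16, Vars2 at 0.15) and 1 lower (Pars2 at -0.18), against 7 and 0 with library totals. Asparagine synthetase and its regulators had 2 of 9 higher and 1 lower (3 and 0 with library totals), and t6A modification had 0 of 4 called by edgeR and by DESeq2, with 1 at an unadjusted p below 0.05 and 2 higher with library totals. Between Q140 Pms1 null and Q140 striatum the only call by edgeR with TMM factors in these 5 lists was Pars2, higher by 0.24 (SE 0.07). DESeq2 called 2 synthetases and 1 gene of branched-chain breakdown, and library totals called 5 genes lower and did not call Pars2. In cortex 0 of the 107 list genes tested were called by edgeR in either comparison and none by DESeq2. Of these genes, 22 were at an unadjusted p below 0.05 between Q140 Pms1 null and Q140 and 8 between Q140 and WT. Of all 18711 genes, 2713 and 1369 were, in that order.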

How the data were processed

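RNA-seq counts of 96 libraries (2 tissues of 48 mice) were used. The deposited count table holds unnormalized whole-number read counts per gene. The tools named were HTSeq 0.12.3, SAMtools 1.10 and STAR 2.7.5c, and the builds mm10 and GRCm38, per the submitters' processing notes, which say nothing of their use. For the counting, neither the strand setting nor the annotation release was given in the sources used here. A second deposited table holds FPKM by the authors, used for levels between genes and as an alternative. Of 48795 genes, 48435 matched an identifier in GENCODE M21.

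The 10 genes, the lists of partner genes and the tests were chosen with earlier results of these data known. The counts were tested in R 4.3.3 by edgeR 4.0.16, in 1 fit per tissue over 48 libraries with genotype and sex as terms. Scaling was TMM, filterByExpr was run by genotype, and the quasi-likelihood fit was robust. Calls have an adjusted p below 0.05 (Benjamini-Hochberg, over all genes of a comparison); standard errors are the log2 fold change divided by the root of F. The tissues were compared over all 96 libraries with genotype by tissue and sex by tissue terms. The test was checked on simulated counts. Named beside the 10 genes were Pms1, called genes within 5 Mb of it, up to 3 called genes per list and direction, and the gene whose residuals (log2 CPM, prior count 2, after genotype and sex) had the highest smaller r of the 2 tissues with each member. Per1, Egr1 and Hspd1-ps3 fall outside that rule and were chosen after their values were seen. The values of 1 called list gene are not reported here.

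Both tissues come from the same animals, as their codes show. Over 48 animals the deviations of the 2 libraries from their group means correlated with a median of 0.27 (lowest 0.109), and 43 correlated best with their own animal, so the tissue comparisons were repeated with the animal as a block. The chi-square per degree of freedom was at least 3.4 in the 336 pairs of libraries within a group, so none was merged. Group sizes are those of the labels; the series text names more animals per group. Alternatives used RLE factors, library totals, no filter, DESeq2 1.42.0, limma 3.58.1 on log2(FPKM + 0.1) and log2(FPKM + 1), 2 genotypes at a time, a block or term on the animal code, and each sex alone.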

Additional observations from a re-analysis of the deposited data

Results flagged for a closer look

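Among 120 sets of 8 animals (10 genes, 6 genotypes, 2 tissues), 8 had 1 animal far from the other 7 by Dixon's test, and chance marks about 1 in 20 sets. In Pms1 null animal 1, a male, Mob4 in cortex was high at 62.3 CPM, Mars2 in cortex low at 32.8 CPM and Mfsd6 in striatum high at 76.7 CPM. Asnsd1 was high in striatum of Pms1 null animal 5 at 4.66 CPM. Mars2 was high in striatum of Pms1 het animal 4 at 29.9 CPM, and Coq10b low in cortex of Pms1 het animal 8 at 28.2 CPM. Hibch was high in striatum of Q140 Pms1 null animal 2 at 15.2 CPM. Mfsd6 was high in cortex of WT animal 3 at 127 CPM. The Mars2 change of Q140 Pms1 null against Q140 differed between striatum and cortex by -0.18 on the log2 scale, by the test of the difference itself.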

How the results depend on the processing

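Of 1980 values of single members under another setting, 1863 stayed on their side of the threshold, 84 lost a call and 33 gained one, and 0 called values turned round. Between Q140 Pms1 null and Q140 striatum the 1 member called became 4 with library totals only and with limma on log2(FPKM + 0.1) or log2(FPKM + 1), and 3 with limma without a filter. It became 0 without the filter, with the term for late codes, in females and in males. The 4 of Pms1 null against WT striatum became 1 with limma without a filter, 2 with only the 2 genotypes, 0 with the late-code term, 2 in females and 0 in males. In cortex those 4 became 2 without the filter, 2 with limma without a filter, 2 with limma-voom blocked on the first code number, 1 with the late-code term and 0 in males. The 5 of Q140 against WT striatum became 3 without the filter and 0 in males. The 4 of Q140 Pms1 null against Pms1 null striatum became 1 without the filter, 1 with only the 2 genotypes, 2 with the code block, 1 in females and 0 in males. The 4 of Q140 Pms1 het against Pms1 het striatum became 2 without the filter, 2 in females and 1 in males. The 0 of its cortex became 1 with library totals, DESeq2, limma on either FPKM scale and in males. The single call of the tissue difference became 0 with RLE factors, without the filter and with late-code terms. In Q140 against WT striatum Hspa9 was 0.0150 with library totals and 0.0150, 0.0147 and 0.0150 with limma on FPKM, and Atf4 was 0.0110 in males. Other listed genes and genes named beside the members lost 261 calls, and 123 of 576 list counts moved by over 1.5 times; the causes were not tested.

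With the animal as a replicate block the members called between WT striatum and WT cortex numbered 8 instead of 6, with Osgepl1 and Coq10b added, and 1541 instead of 801 genes were called for the tissue difference, Mars2 among them. Without the filter 530 and with late-code terms 227 genes were called for it.

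Calls over all genes between Q140 Pms1 null and Q140 striatum numbered 1342 and lay between 175 (males) and 2209 (limma on log2(FPKM + 1)). In cortex there were 2, and 123 with DESeq2. Pms1 null against WT striatum had 1494, and between 0 (males) and 1069 under the settings that moved the members. In Pms1 null against WT cortex 1792 became 293 with the late-code term and 2 in males. Q140 against WT striatum had 5909, and 2807 in males. Q140 Pms1 null against Pms1 null striatum had 2090, 1013 in females and 431 in males, and Q140 Pms1 het against Pms1 het striatum 4698, 2169 in females and 2481 in males. In its cortex 21 became 222 with DESeq2 and 322 in males. Pms1 het against WT had 0, and 8 in striatum and 33 in cortex with DESeq2. Each sex alone leaves 4 animals per group. Asnsd1 and Ormdl1 had the lowest median counts in WT striatum, 142 and 251.5.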
